A study of Mus musculus with 6 samples.

Results

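The 9 genes described here encode proteins of the retina's light-sensing cells and of the cells that serve them. They were taken by name: Sag, Pde6b, Pde6g, Gnat1, Gngt1, Rcvrn, Nrl, Rlbp1 and Rpe65, out of 19938 genes that the array annotation pairs with a probe set of their own. Each of the 9 had exactly 1 such probe set, and no probe set with several genes held any of them. They were measured in whole corneas, which normally contain no retina, so the 6 arrays were read singly as a check of retinal signal.

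Mouse pups of 2 genotypes at postnatal day 3 were compared on Affymetrix Mouse Gene 1.0 ST arrays, 3 arrays each. DN-Clim pups carried a transgene for a dominant-negative form of CLIM, a family of cofactors that bind LIM-domain transcription regulators, under the keratin 14 (K14) promoter, which is active in the basal cells of stratified epithelia. The WT pups were their littermates without the transgene, and no further treatment or allele is named for either group. The labels give neither strain nor sex. They also leave unsaid whether an array held 1 animal or several, so the spread behind each p-value is that of these samples and may be technical in part. Per the labels' protocols the corneas were dissected free of other tissues, and RNA purity was checked by PCR for markers of neighbouring tissues.

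In rods, light activates rhodopsin, which switches on the G protein transducin, and transducin in turn releases the catalytic subunits of a phosphodiesterase from their inhibitory subunit. The fall in cyclic GMP closes the channels of the outer segment, and arrestin and calcium-binding proteins such as recoverin end and tune the response. Rods of newborn mice are still forming and lack mature outer segments. The chromophore of the visual pigments is restored by the visual cycle in the retinal pigment epithelium and in Müller glia, the support cells of the retina. In the adult eye the retina lies behind the lens and vitreous and does not touch the cornea.

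Values below are log2(intensity + 16) of the deposited probe set intensities, and a difference is either DN-Clim minus WT or 1 array minus the mean of the 3 WT arrays. The scale understates the change of dim genes, and levels are compared between arrays, never between genes. Array medians ran from 7.95 to 8.21 in DN-Clim and from 8.11 to 8.17 in WT. Relative to the WT mean, the median probe set tested stood at -0.07, -0.16 and 0.06 on DN-Clim replicates 1, 2 and 3. Of the genes of the labelled tissue, Slc4a11, a transporter of the corneal endothelium, ranged from 6.68 to 8.11 in DN-Clim and from 7.45 to 7.99 in WT. Krt12, the keratin of corneal epithelium, ranged from 11.04 to 11.96 in DN-Clim and from 11.21 to 11.56 in WT. The stromal proteoglycan gene Kera ranged from 11.96 to 12.75 in DN-Clim and from 12.56 to 13.09 in WT. Kera lay below every WT array on DN-Clim replicates 1 and 2 and within the WT range on DN-Clim replicate 3. Of the 10 cornea genes measured, 1 had a DN-Clim minus WT difference above 0, and the median was -0.44. The arrays did not separate by genotype over the whole table. DN-Clim replicate 3 correlated with DN-Clim replicates 1 and 2 at 0.921 and 0.899, and with the WT arrays at 0.936 to 0.950.

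RefSeq promoter windows, 250 bases before to 50 bases after the start of transcription, were at hand for 6 of the 9 genes (GRCm38.p6). They were searched on both strands for TAATCC, the core recognised by the photoreceptor factor Crx, and for TGCTGA, a site of the Maf family to which Nrl belongs. TAATCC or its complement GGATTA was in 3 of the 6 windows, those of Sag, Gngt1 and Rpe65, against 7.06% of 32851 windows of the same length. TGCTGA or its complement was in 3 of 6, those of Sag, Pde6b and Rlbp1, against 19.5%, and the Nrl window held neither. No match of one motif overlapped a match of the other. Sag, Pde6b and Gngt1 were high on the same arrays and Rpe65 was not. The windows of these 4 are shown from 5′ to 3′ on the strand of the gene, with the matches in capitals. They were picked with the array values known. The windows of Rlbp1, which was also high on those arrays, and of Nrl are not shown. The Sag window lies at chr1:87803430-87803729 (plus strand), that of Pde6b at chr5:108388123-108388422 (plus strand), that of Gngt1 at chr6:3993758-3994057 (plus strand) and that of Rpe65 at chr3:159598931-159599230 (plus strand).
Sag: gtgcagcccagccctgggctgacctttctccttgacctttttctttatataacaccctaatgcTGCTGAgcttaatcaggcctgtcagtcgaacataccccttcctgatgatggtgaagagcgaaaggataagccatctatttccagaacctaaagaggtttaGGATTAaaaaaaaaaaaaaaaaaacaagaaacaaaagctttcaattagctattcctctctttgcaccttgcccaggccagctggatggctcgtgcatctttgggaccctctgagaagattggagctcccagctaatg
Pde6b: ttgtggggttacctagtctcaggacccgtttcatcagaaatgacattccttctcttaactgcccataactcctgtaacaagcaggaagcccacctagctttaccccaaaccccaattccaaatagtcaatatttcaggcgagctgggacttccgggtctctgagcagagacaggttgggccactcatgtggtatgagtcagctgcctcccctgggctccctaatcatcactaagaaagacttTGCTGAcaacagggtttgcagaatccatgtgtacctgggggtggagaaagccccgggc
Gngt1: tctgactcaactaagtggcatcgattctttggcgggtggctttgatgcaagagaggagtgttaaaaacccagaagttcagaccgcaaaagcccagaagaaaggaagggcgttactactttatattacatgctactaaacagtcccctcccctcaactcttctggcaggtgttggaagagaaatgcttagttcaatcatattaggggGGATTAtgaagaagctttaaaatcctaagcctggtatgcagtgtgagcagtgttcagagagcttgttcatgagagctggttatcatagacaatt
Rpe65: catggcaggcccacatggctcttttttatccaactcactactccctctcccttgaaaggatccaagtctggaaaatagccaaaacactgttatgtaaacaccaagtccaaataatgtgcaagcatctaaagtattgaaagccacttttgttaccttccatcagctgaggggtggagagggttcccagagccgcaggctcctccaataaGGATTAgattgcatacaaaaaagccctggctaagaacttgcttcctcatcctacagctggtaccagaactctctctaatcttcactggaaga
The GGATTA match begins at position -87 in Sag, -44 in Gngt1 and -42 in Rpe65, and the TGCTGA match at -187 in Sag and -8 in Pde6b, counted from the start of transcription. The matches are letters in a window and not measured sites. A GGATTA stood in the window of Rpe65 as in those of Sag and Gngt1, and the values that follow differed between these genes.

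Of the 9 genes, 6 were read at their highest on DN-Clim replicates 1 and 2 and lay within the WT range on DN-Clim replicate 3. These were Sag, Pde6b, Pde6g, Gngt1, Rcvrn and Rlbp1. Gnat1, Nrl and Rpe65 did not share the pattern. No member passed the limma threshold, an adjusted p of 0.05 over the 23410 probe sets tested, with all 6 arrays. The background was 0% of probe sets called higher and 0.0128% called lower. In bulk tissue, more cells of a type and more RNA per cell cannot be told apart.

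**Figure D1:**
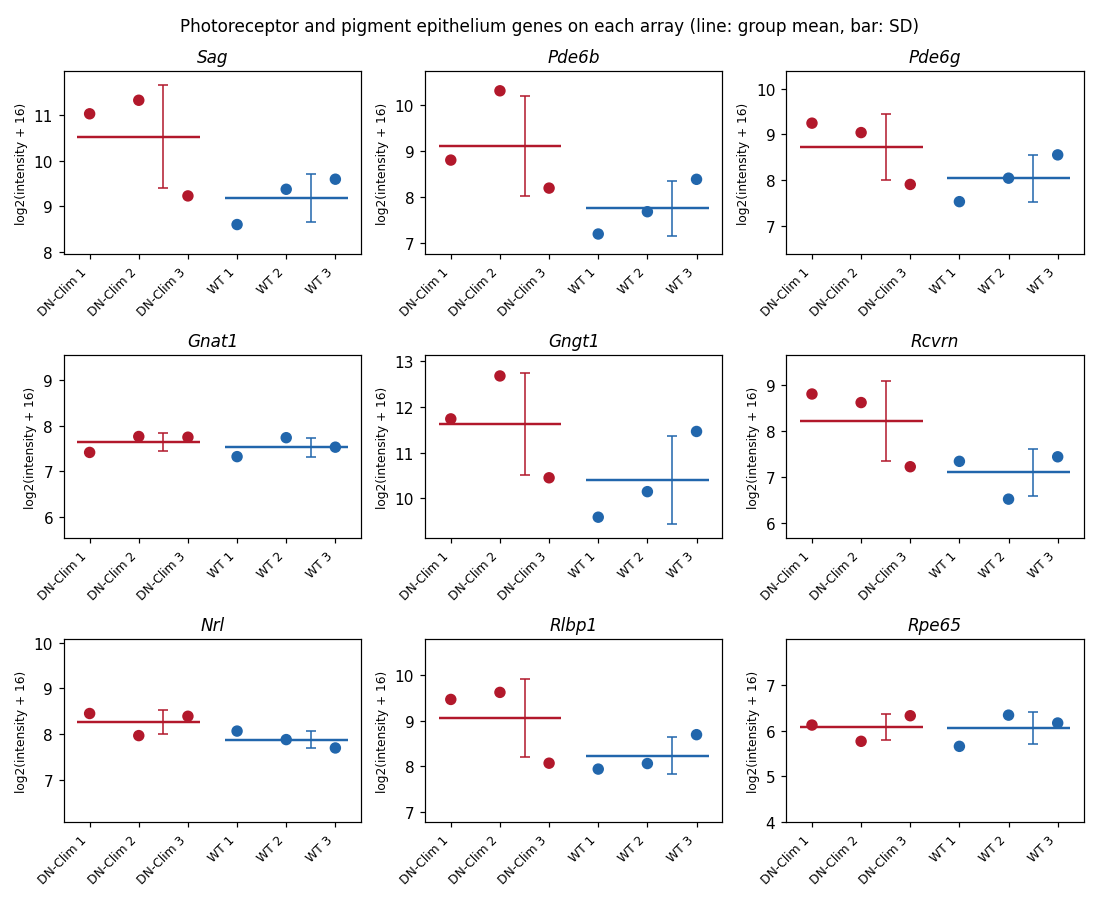
Levels of the 9 genes, log2(intensity + 16) on the vertical axis, on each of the 3 DN-Clim arrays (red) and 3 WT arrays (blue). Every panel spans 4 log2 units; lines are group means and bars the SD of 3 arrays. Sag, Pde6b, Pde6g, Gngt1, Rcvrn and Rlbp1 are highest on DN-Clim replicates 1 and 2, and Gnat1, Nrl and Rpe65 span at most 0.753 over the 6 arrays.

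The G protein of rods was represented by both of its rod-specific subunits. Gngt1, the gamma subunit of rod transducin, read 11.74, 12.68 and 10.45 on DN-Clim replicates 1, 2 and 3, against 9.59, 10.15 and 11.46 on WT replicates 1, 2 and 3. The groups overlapped, because WT replicate 3 lay above DN-Clim replicate 3 and close to DN-Clim replicate 1. The difference was 1.22 (SE 0.584, 95% interval -0.09 to 2.54, limma adjusted p = 0.879). Gnat1, the alpha subunit that carries the signal from rhodopsin, read 7.41, 7.76 and 7.75 in DN-Clim, against 7.32, 7.74 and 7.53 in WT. The Gnat1 values of all 6 arrays lay within 0.44 of each other, and the difference was 0.11 (SE 0.197, 95% interval -0.33 to 0.56, adjusted p = 0.999).

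The phosphodiesterase was likewise represented by a pair of its subunits. Pde6b, the beta catalytic subunit, read 8.80, 10.31 and 8.19 on DN-Clim replicates 1, 2 and 3, against 7.19, 7.67 and 8.38 in WT. DN-Clim replicate 2 stood alone at the top, well above DN-Clim replicate 1, and WT replicate 3 lay above DN-Clim replicate 3. The difference of 1.36 (SE 0.502, 95% interval 0.22 to 2.49) had an unadjusted p of 0.0239 and a limma adjusted p of 0.788. Pde6g, the inhibitory gamma subunit, read 9.24, 9.04 and 7.91 in DN-Clim, against 7.53, 8.04 and 8.55 in WT. Here DN-Clim replicate 3 lay below both WT replicates 2 and 3, and the difference was 0.69 (SE 0.374, 95% interval -0.15 to 1.53, adjusted p = 0.931).

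Both genes of the shutoff arm were high on the same 2 arrays. Sag, which encodes the arrestin of rods, read 11.02, 11.32 and 9.23 on DN-Clim replicates 1, 2 and 3, against 8.60, 9.37 and 9.59 in WT. DN-Clim replicates 1 and 2 lay above every other array, while DN-Clim replicate 3 lay between WT replicates 1 and 2. The difference was 1.33 (SE 0.501, 95% interval 0.20 to 2.46, unadjusted p = 0.0254, limma adjusted p = 0.788). Rcvrn, recoverin, a calcium sensor that restrains rhodopsin kinase, read 8.81, 8.62 and 7.22 in DN-Clim, against 7.34, 6.51 and 7.44 in WT. DN-Clim replicate 3 lay below WT replicates 1 and 3, and the difference was 1.12 (SE 0.416, 95% interval 0.18 to 2.06, unadjusted p = 0.0241, adjusted p = 0.788).

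Nrl, the leucine zipper factor that commits photoreceptor precursors to the rod fate, did not follow the genes above. It read 8.45, 7.97 and 8.39 in DN-Clim, against 8.07, 7.88 and 7.70 in WT. For this gene the 2 highest arrays were DN-Clim replicates 1 and 3, and WT replicate 3 was the lowest of the 6. The difference was 0.39 (SE 0.205, 95% interval -0.07 to 0.85, limma adjusted p = 0.919).

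The visual cycle was represented by 2 genes that behaved differently. Rlbp1, which encodes the retinaldehyde-binding protein of Müller glia and pigment epithelium, read 9.46, 9.61 and 8.07 in DN-Clim, against 7.94, 8.06 and 8.69 in WT. DN-Clim replicate 3 lay with WT replicates 1 and 2, and the difference was 0.82 (SE 0.394, 95% interval -0.07 to 1.71, limma adjusted p = 0.883). Rpe65, the isomerase of the visual cycle and a defining gene of the pigment epithelium, read 6.12, 5.76 and 6.32 in DN-Clim, against 5.65, 6.34 and 6.16 in WT. These values were dim, above only 5.57% to 10.2% of the probe sets of their arrays. The difference was 0.02 (SE 0.239, 95% interval -0.52 to 0.55, adjusted p = 0.999), and a difference inside these bounds was not detectable.

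At an unadjusted p under 0.05, 3 of the 9 members were higher in DN-Clim (Sag, Pde6b and Rcvrn) and the other 6 missed it. Of all probe sets tested, 1.45% were higher at that level. The members were chosen with earlier results of these data known, so shares set beside them here and below are description and not a test. For none of the 9 did the 3 DN-Clim arrays all lie above the 3 WT arrays, which 3.20% of probe sets did, nor all below, which 6.95% did. The median of the 9 differences was 0.82, against -0.04 over all probe sets tested. The mean over the members stood 0.99 and 1.21 above the WT mean on DN-Clim replicates 1 and 2, and 0.15 above it on DN-Clim replicate 3. On WT replicates 1, 2 and 3 it stood at -0.33, -0.04 and 0.37.

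Read singly, the arrays fell into an order that 6 of the genes largely shared. On DN-Clim replicate 1, 6 of the 9 members lay above all 3 WT arrays and at least 1 above the WT mean, as did 0.957% of all probe sets. On DN-Clim replicate 2 it was 5 of 9, against 2.43% of all probe sets, with Pde6g just short at 0.998 above the WT mean. On DN-Clim replicate 3 it was 0 of 9, against 0.316%. The excess over WT on replicates 1 and 2 was not of equal size from gene to gene. Pde6b stood 1.05 above the WT mean on replicate 1 and 2.57 on replicate 2, and Gngt1 stood at 1.34 and 2.28, whereas Sag stood at 1.83 and 2.13 and Rlbp1 at 1.23 and 1.38. Pde6g and Rcvrn were higher on replicate 1 than on replicate 2, at 1.20 and 1.00 for Pde6g and 1.71 and 1.53 for Rcvrn.

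**Figure D2:**
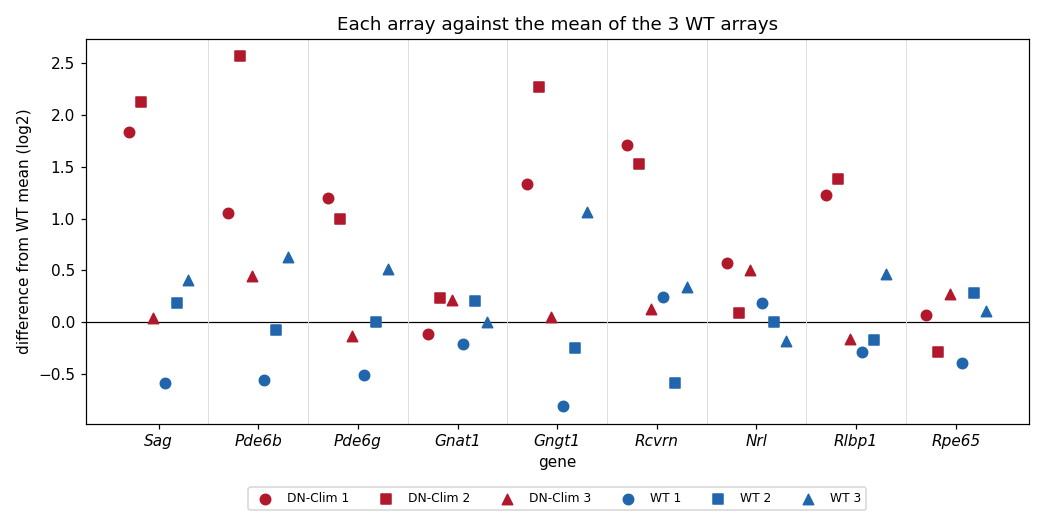
Difference of each array from the mean of the 3 WT arrays (log2, vertical axis) for the 9 genes (horizontal axis); red symbols are DN-Clim, blue symbols WT, and the symbol shape gives the replicate. DN-Clim replicate 2 reaches 2.57 for Pde6b, DN-Clim replicate 3 stays between -0.16 and 0.51, and WT replicate 3 reaches 1.06 for Gngt1.

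The WT arrays differed among themselves in the same genes. WT replicate 3 was the highest WT array for 6 of the 9 members, against 31.6% of all probe sets, and these 6 were the ones that were high on DN-Clim replicates 1 and 2. WT replicate 1 was the lowest WT array for 7 of the 9, against 37.5% of all probe sets. The spread within WT reached 1.87 for Gngt1 and 1.20 for Pde6b, and was 1.02 for Pde6g, 0.99 for Sag, 0.93 for Rcvrn and 0.75 for Rlbp1. It was 0.68 for Rpe65, close to that of Rlbp1, 0.41 for Gnat1 and 0.37 for Nrl. For Gngt1 the gap of 1.87 between single WT arrays is larger than the fitted difference of 1.22 between the genotype means, which is an unlike measure. The WT gap was also the larger for Pde6g, and it was the smaller for Sag, Pde6b, Rcvrn and Rlbp1.

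Among the fits with a single array left out, only that without DN-Clim replicate 3 called any member. Without DN-Clim replicate 3, that is with DN-Clim replicates 1 and 2 against the 3 WT arrays, 3 of the 9 members were higher past the threshold. Of all probe sets, 0.547% were higher and 1.52% lower. Sag rose by 1.98 (SE 0.286, limma adjusted p = 0.0166), Rcvrn by 1.62 (SE 0.276, adjusted p = 0.0296) and Rlbp1 by 1.31 (SE 0.237, adjusted p = 0.0365). Pde6b at 1.81, Gngt1 at 1.81 and Pde6g at 1.10 had adjusted p-values of 0.0937, 0.116 and 0.0914 and did not pass. Gnat1 at 0.06, Nrl at 0.33 and Rpe65 at -0.11 had adjusted p-values from 0.365 to 0.863. Leaving out any of the other 5 arrays called no member and no probe set. No p-value here allows for having picked which array to leave out.

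Each DN-Clim array was also set alone against WT, with the single array assumed to vary like the WT arrays. DN-Clim replicate 2 alone gave 4 of 9 members higher and none lower, where 2.31% of probe sets were higher and 4.57% lower. They were Pde6b (2.57, limma adjusted p = 0.0143), Sag (2.13, adjusted p = 0.0178), Rlbp1 (1.38, adjusted p = 0.0389) and Rcvrn (1.53, adjusted p = 0.0451). DN-Clim replicate 1 alone called no member, where 0.252% of probe sets were higher and 0.957% lower, and the smallest adjusted p was 0.0656 for Sag. DN-Clim replicate 3 alone called no member, where 0.0256% were higher and 0.312% lower, and differed by 0.04 for Sag (95% interval -0.79 to 0.86) and by -0.16 for Rlbp1 (95% interval -0.85 to 0.53). The interval for Sag on DN-Clim replicate 3 thus leaves out the difference of 1.98 seen on the other 2 DN-Clim arrays.

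**Figure D3:**
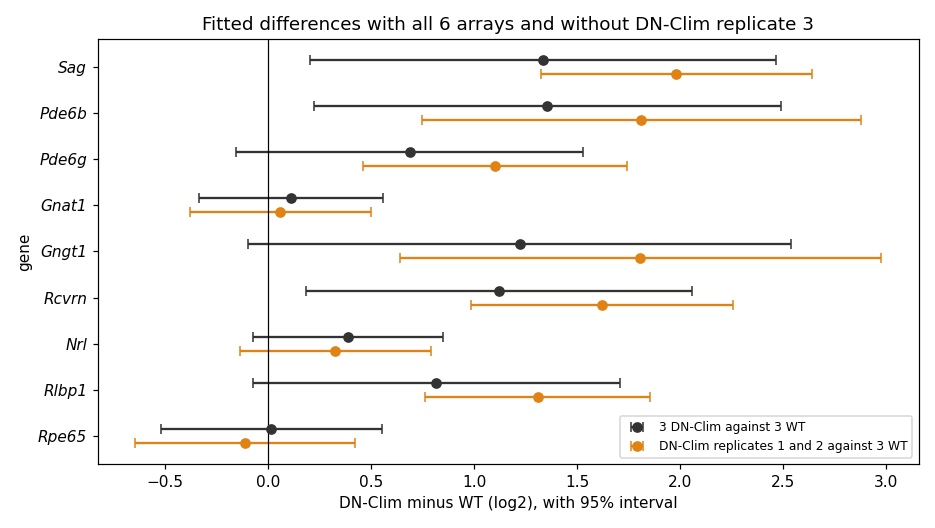
Fitted DN-Clim minus WT differences (log2, horizontal axis) with 95% intervals from limma for the 9 genes, with all 6 arrays (dark) and without DN-Clim replicate 3 (orange). Sag is at 1.33 and 1.98, and Gnat1, Nrl and Rpe65 have intervals that include 0 in both fits.

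Other rod genes gave a mixed picture. The list of rod phototransduction and outer segment genes held 26 measured genes, 20 of them besides the members. None passed with all 6 arrays, 17 of the 20 differences were above 0, and their median was 0.21, against -0.04 over all probe sets tested. The genes of a list share the same 6 arrays, so counts above 0 here and below are not counts of independent results. The share of all probe sets above 0 was not computed. The largest were in Rp1, a microtubule protein of the outer segment (1.35, SE 0.664), Rbp3, the retinoid carrier between photoreceptors and pigment epithelium (1.17, SE 0.566), and Rom1, a disc membrane protein (1.11, SE 0.563). Rp1 read 9.73, 10.09 and 7.55 in DN-Clim, against 6.83, 7.69 and 8.81 in WT, with DN-Clim replicate 2 the highest and WT replicate 1 the lowest array, as for Gngt1. The limma adjusted p-values of these 3 genes ran from 0.891 to 0.897. On DN-Clim replicate 1, 5 of the 20 lay above all WT arrays and at least 1 above the WT mean, against 0.957% of all probe sets. On replicate 2 it was 7, against 2.43%, and on replicate 3 it was 0, against 0.316%.

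Of the retinal lists, the transcription factors of photoreceptor precursors had the largest median difference. Of 7 measured factors besides Nrl all were above 0 in the fitted difference, with a median of 1.19, and none passed. Relative to the WT mean the factors had medians of 1.47, 2.01 and 0.15 on DN-Clim replicates 1, 2 and 3, and of -0.74, -0.07 and 0.81 on WT replicates 1, 2 and 3. Neurod1, a basic helix-loop-helix factor, differed by 1.37 (SE 0.637), Rorb, a nuclear receptor that acts before Nrl, by 1.28 (SE 0.659) and Prdm1, a repressor that steers precursors away from the bipolar fate, by 1.25 (SE 0.455). Their limma adjusted p-values ran from 0.788 to 0.907. Crx, the factor of the TAATCC core, read 10.46, 11.24 and 8.61 in DN-Clim, against 8.04, 8.75 and 9.95 in WT, and Crx was thus high on the same arrays as Sag.

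Cones were represented by a list of their own. Of 12 cone genes 11 had a difference above 0, with a median of 0.35, and none passed with all 6 arrays. Gngt2, the gamma subunit of cone transducin, differed by 1.26 (SE 0.497), Opn1sw, the short-wavelength opsin, by 1.24 (SE 0.567) and Cngb3, a channel subunit, by 0.88 (SE 0.562). Without DN-Clim replicate 3 the 1 cone gene that rose was Opn1sw, by 2.03 (SE 0.241, limma adjusted p = 0.0085). Opn1sw read 10.80, 10.94 and 8.51 in DN-Clim, against 8.46, 9.29 and 8.79 in WT.

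The pigment epithelium side did not show a common shift. Of the 12 genes of the visual cycle and pigment epithelium besides Rlbp1 and Rpe65, 6 were above 0 and the median was -0.01. Ttr, transthyretin, which pigment epithelium and ciliary epithelium secrete, read 11.49, 11.67 and 8.12 in DN-Clim, against 9.43, 8.98 and 10.53 in WT, a difference of 0.78 (SE 0.835). Mertk, the receptor for engulfing outer segments, which macrophages also carry, differed by -0.84 (SE 0.317), and Trpm1, a channel of bipolar cells and melanocytes, by -0.41 (SE 0.276). Their limma adjusted p-values ran from 0.789 to 0.999. Without DN-Clim replicate 3, Mertk fell by 1.18 (adjusted p = 0.0495). The pigment genes that pigment epithelium shares with melanocytes had medians of 0.54, 0.37 and -1.11 on DN-Clim replicates 1, 2 and 3, and their median difference was -0.07 over 9 genes, none of which passed. Dct, an enzyme of melanin synthesis, differed by -0.48 (SE 0.643), Mitf, the master factor of pigment cells, by 0.34 (SE 0.257) and the transporter gene Slc45a2 by -0.29 (SE 0.197).

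Other cell types of the retina were covered by 3 lists, in none of which a gene passed with all 6 arrays. Of 11 progenitor genes 10 were above 0, with a median of 0.15. Sox2 differed by 1.93 (SE 0.90), Six6 by 1.32 (SE 0.488) and Lhx2 by 1.04 (SE 0.402). Sox2, a progenitor factor, read 12.54 on DN-Clim replicate 1 but 8.58 and 8.51 on DN-Clim replicates 2 and 3, against 7.75 to 8.32 in WT, so that all 3 DN-Clim arrays lay above WT and replicate 1 far above the other 2. Without DN-Clim replicate 3, Lhx2 rose by 1.54 (SE 0.248, limma adjusted p = 0.0254). Of 17 genes of ganglion, amacrine, horizontal and bipolar cells 10 were above 0, with a median of 0.05. Nefl, a neurofilament subunit, differed by 0.70, Stmn2, a tubulin-binding protein of growing axons, by 0.49 and Isl1 by 0.35. Of 7 Müller glia genes besides Rlbp1, 6 were above 0, with a median of 0.10. Among these Car2, a carbonic anhydrase, differed by 0.81, Dkk3 by 0.49 and Kcnj10, a potassium channel, by 0.10.

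Neighbouring eye tissues were read beside these lists. Of 4 ciliary epithelium genes none passed, with Optc at 0.60, Otx1 at -0.35 and Zic1 at 0.25. Lens genes had medians of 2.92, 3.32 and -0.10 relative to the WT mean on DN-Clim replicates 1, 2 and 3, and of -0.12, -0.07 and 0.20 on WT replicates 1, 2 and 3. None of 20 lens genes passed with all 6 arrays. Without DN-Clim replicate 3, 12 rose, against 0.547% of all probe sets, and Cryba2, Crybb1 and Crybb3 rose by 5.24, 5.36 and 5.03. Cornea genes had medians of -0.77, -0.64 and -0.02 on the DN-Clim arrays. None of 10 passed with all 6 arrays. Without DN-Clim replicate 3, 4 fell, against 1.52% of all probe sets: Aldh3a1 (-1.62), Lum (-1.49), Dcn (-1.17) and Krt14 (-0.81). The medians of the lens genes, cornea genes and photoreceptor factors thus moved on the same DN-Clim arrays. Not every cornea gene followed its list median, as Krt5 and Krt14 lay below every WT array on all 3 DN-Clim arrays. Krt14 read 11.30, 11.31 and 11.83 in DN-Clim, against 11.99 to 12.26 in WT. The part of dissected tissue in the photoreceptor values was not tested. On WT replicate 3 the median of the photoreceptor factors stood 0.81 above the WT mean and that of the lens genes 0.20.

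**Figure D4:**
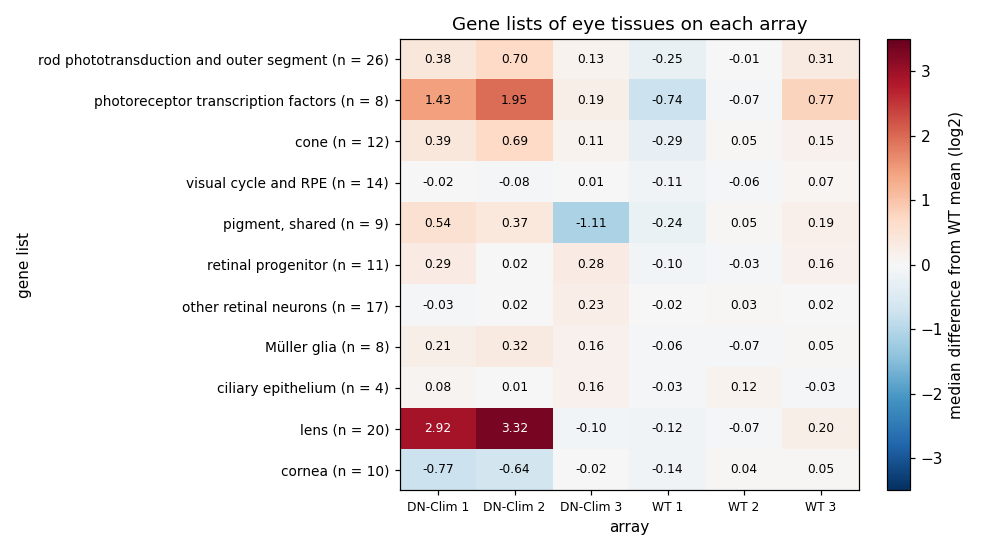
Median difference from the WT mean (log2, colour and printed number) of 11 gene lists (rows, with the number of genes measured) on the 3 DN-Clim and 3 WT arrays (columns). Photoreceptor factors, the list that includes Nrl, stand at 1.43 and 1.95 and lens genes at 2.92 and 3.32 on DN-Clim replicates 1 and 2, and pigment genes stand at -1.11 on DN-Clim replicate 3.

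The members' likeness to each other and to other genes was read as Pearson's r over the 6 arrays, which share their dissection and array effects across genes. Against the mean of the other 8 members, r was 0.975 for Sag, 0.969 for Rlbp1, 0.947 for Gngt1, 0.940 for Pde6g, 0.908 for Pde6b and 0.827 for Rcvrn. It was 0.192 for Gnat1, 0.127 for Nrl and -0.17 for Rpe65. Among 3948 other genes with a range of at least 1 over the arrays, the 8 with the highest r to the mean of the members were Mab21l2, Abcd2, Zdbf2, Suv39h2, Zdhhc2, Lhx2, Dcx and Lbh, with r from 0.993 to 0.999. Mab21l2, a gene required for eye development, read 11.27, 11.60 and 10.04 in DN-Clim, against 9.34, 9.68 and 10.28 in WT. Abcd2, a fatty acid transporter of peroxisomes, read 8.75, 9.11 and 7.34 in DN-Clim, against 6.56, 6.94 and 7.87 in WT. None of the 8 passed with all 6 arrays, with limma adjusted p-values from 0.721 to 0.836.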

How the data were processed

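Whole-cornea RNA of 3 DN-Clim and 3 WT samples was amplified, labelled with biotin and hybridised to Affymetrix Mouse Gene 1.0 ST arrays, per the labels' protocols. The deposited values are probe set intensities on a linear scale, made with Affymetrix Expression Console 1.1 and PLIER, per the submitters' processing notes. Their background correction and any scaling between arrays were not stated there. Of 35557 probe sets the platform annotation names 23410 (21789 with 1 symbol, 1621 with several, none of which holds a member), and the other 12147 were not tested.

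Intensities were taken as log2(intensity + 16) and fitted over the 23410 probe sets in limma (lmFit, eBayes; version 3.58.1, R 4.3.3). Adjusted p-values are Benjamini-Hochberg values, called under 0.05. On simulated data for 3 against 3 over 23410 probe sets, the fit made 8 false calls. It recovered 34% of changes of 1 on the log2 scale, 82% of changes of 2 and 98% of changes of 3. These shares did not hold for lens genes, which differed strongly among the DN-Clim arrays. With all 6 arrays Cryba2, Crybb1 and Crybb3 differed by 3.46, 3.56 and 3.34 (SE 1.18, 1.22 and 1.13), and none passed. The shares are thus no guide for genes split by DN-Clim replicate 3, the 6 high members among them. A gene's main probe set is the one with the highest mean. All members were named. From each list every gene past the threshold with all arrays was named, otherwise the 3 largest absolute differences, and the 8 genes most like the members by Pearson's r were added. Crx, Krt5, Krt12, Krt14, Kera, Slc4a11, Tyr, Tyrp1, Pmel, Mlana, Oca2 and Gpr143 were named outside that rule, after their values were seen. Members and lists were chosen with earlier results of these data known. Of 147 list entries, those without a probe set of 1 symbol were not analysed here. The number of arrays limits the precision. Alternatives covered the offset, normalization, filters, prior, array weights, the replicate number and the samples used.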

Additional observations from a re-analysis of the deposited data

How the results depend on the processing

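Over 18 alternatives, 138 of 161 comparisons of single members stayed on the same side of 0 and of the threshold, 14 passed it newly and 9 changed sign, none of these past the threshold. Of the sign changes, 5 were in Rpe65, which ran from -0.18 to 0.17 when single arrays were left out (below 0 without DN-Clim replicate 1, DN-Clim replicate 3 or WT replicate 1), and was -0.29 with DN-Clim replicate 2 alone and -0.056 with array weights. Gnat1 turned to -0.13 with array weights and -0.11 with DN-Clim replicate 1 alone. Pde6g and Rlbp1 turned to -0.14 and -0.16 with DN-Clim replicate 3 alone, where the member median was 0.12. Members called higher ran from 0 to 3 when single arrays were left out, and were 4 with DN-Clim replicate 2 alone and 7 with array weights; none was called lower in any setting.

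Array weights ranged from 0.199 for DN-Clim replicate 3 to 3.06 for DN-Clim replicate 1, by the gene-by-gene method because the default had not converged, so that this setting rests mostly on 1 DN-Clim array. Of all probe sets 0 were higher and 3 lower with all 6 arrays. The lower count was 1 with quantile normalization, 0 over all probe sets of the table, 5 with a trended robust prior and 9 with the replicate block. Array weights gave 687 higher and 1372 lower. Leaving out single arrays gave 0 to 128 higher and 0 to 355 lower. DN-Clim replicate 1 alone gave 59 higher and 224 lower, replicate 2 alone 541 and 1071, and replicate 3 alone 6 and 73. Rpe65 fell under the filter on dim probe sets and has no value there. No member had another probe set, so that alternative gave no value.

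The replicate block called no member, with Sag at 1.33 as without it. Outside that setting the replicate numbers were not used as pairs. Deviations of same-numbered arrays from their group means had r of 0.02, -0.21 and -0.44 for numbers 1, 2 and 3. These r values cannot show whether the samples were paired, because the deviations of 3 arrays sum to 0 within each group. The dimness of Rpe65 limits what its values can show.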

Other observations

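On DN-Clim replicate 3, the pigment genes Tyr, Tyrp1, Dct, Pmel and Mlana stood at -1.11, -1.49, -2.34, -1.25 and -1.45 relative to the WT mean. The other pigment genes, Oca2, Mitf, Slc45a2 and Gpr143, stood at 0.18, -0.10, -0.04 and -0.24 on that array. The median probe set tested stood at 0.06 there. Dct read 11.22, 11.06 and 8.35 on DN-Clim replicates 1, 2 and 3, against 10.45 to 10.99 on the WT arrays. Pmel, a melanosome matrix protein, read 11.99, 11.86 and 9.98 on DN-Clim replicates 1, 2 and 3, against 10.81 to 11.68 in WT. Mlana, a melanosome membrane protein, read 11.04, 10.84 and 8.76 on the same arrays, against 10.10 to 10.40 in WT. With DN-Clim replicate 3 alone against WT, Dct differed by -2.34, Pmel by -1.25 and Mlana by -1.45, with limma adjusted p-values of 0.0361, 0.135 and 0.0442. Sag lay within the WT range on the same array, at 9.23, against 8.60 to 9.59 in WT. These genes were picked here after their values were seen.

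Stmn2, a gene of growing axons, read 12.17 on DN-Clim replicate 2 and 8.76 and 8.72 on DN-Clim replicates 1 and 3, against 10.86 on WT replicate 3 and 8.86 and 8.46 on WT replicates 1 and 2. Sox2 read 12.54 on DN-Clim replicate 1, and 8.58 and 8.51 on DN-Clim replicates 2 and 3. The 2 DN-Clim arrays with high photoreceptor readings therefore differed from each other in these genes, each of which was singled out after its values were seen.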
